A study of Mus musculus with 4 samples.

Results

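The genes described here encode 10 C-type lectin receptors of myeloid cells, Clec7a, Clec4e, Clec4d, Clec4n, Clec4a1, Clec4a2, Clec4a3, Clec12a, Clec10a and Mgl2. They were taken by symbol from the 16739 genes with a value in any library. The list was drawn up by family name with the genotype log2 fold changes of these same libraries in view, Clec7a having passed the threshold over all genes. It therefore counts as selected on those fold changes, and the genotype values of the 10 genes are a description and carry no test. RNA was sequenced from tumour-associated macrophages (TAMs) sorted as CD45+CD11b+F4/80+ cells from B16-F10 melanomas, a mouse tumour line grown under the skin. Hosts were C57BL/6 mice aged 6 to 8 weeks when injected and were killed on day 16. The question was how myeloid loss of Trim24, a ubiquitin ligase that the study links to Stat6 acetylation through the acetyltransferase CBP, changes the transcripts of TAMs. There were 2 WT libraries and 2 libraries labelled Trim24-deficient (the deficient-labelled libraries), whose donors carried Trim24 flox/flox with LysM-Cre. WT donors were littermates by the study's methods, which do not say whether they carried Cre or the floxed allele. LysM-Cre is active in macrophages, monocytes and neutrophils alike, so deletion was not limited to TAMs. The labels do not say whether a library came from 1 mouse or a pool, and p-values therefore measure only the spread between these samples.

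C-type lectin receptors are membrane proteins of myeloid cells that bind sugars, lipids or proteins of microbes and of damaged cells through a lectin-like domain. Activating members signal through Syk and Card9, either by a tyrosine motif in their own tail or through the partner chain Fcer1g, and induce cytokines and prostaglandin synthesis. Inhibitory members carry a tail motif that recruits phosphatases such as Ptpn6, and galactose-type members take up glycoproteins, tumour mucins among them. Clec7a, Clec10a and Mgl2 are also widely used as genes that interleukin-4 induces in macrophages.

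Library totals were 4476122 to 5172407 expected counts, at which 3 counts correspond to 0.58 to 0.67 CPM, the counts scaled to a common library total. The sort markers Ptprc, Itgam and Adgre1 were expressed in all libraries, with Adgre1 between 1038 and 1304 CPM. Trim24 itself was low and did not separate the labels, at 5.86 and 2.08 CPM in WT and 3.41 and 0.411 CPM in the deficient-labelled libraries. Counts per gene do not show from which exons the reads came. Sex-linked transcripts followed the labels, Xist at 10.9 and 6.46 CPM in WT against 437 and 256 CPM in the deficient-labelled libraries, and Ddx3y at 73.7 and 102 CPM against 0.426 and 0.411 CPM, with Eif2s3y, Uty and Kdm5d like Ddx3y. Genotype and the sex of the mice thus cannot be told apart here, although the study describes sex-matched hosts. In bulk RNA, fewer cells of a type and less RNA per cell cannot be told apart either.

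All 10 genes had reads in every library, from 81.9 expected counts for Mgl2 to 5097 for Clec12a, and all 10 passed the filter on low counts. Levels between genes were compared in FPKM, fragment counts scaled to transcript length and library total. In WT TAMs Clec4a1 stood highest at 369 FPKM ± 23.2 (SD, n = 2), which is rank 227 among all genes. Clec4a3 followed at 343 FPKM ± 9.44, then Clec12a at 285 FPKM ± 43.3 and Clec4a2 at 126 FPKM ± 6.93 (SD, n = 2 each). These are the DCIR subfamily and the inhibitory receptor MICL, the product of Clec12a. The activating receptors were lower, Clec4n at 74.2 FPKM ± 17.9, Clec4d at 46.9 FPKM ± 12.8, Clec7a at 26.2 FPKM ± 5.53 and Clec4e at 21.3 FPKM ± 2.31 (SD, n = 2 each). Of the galactose-type receptors, Clec10a had 44.2 FPKM ± 8.31 and Mgl2 11.8 FPKM ± 0.0778 in WT (SD, n = 2 each). Mgl2 was the lowest of the 10, at rank 5241 of all genes.

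In WT, 7 of the 9 neighbouring pairs in this order had libraries that did not overlap. Clec4d and Clec10a could not be placed above or below each other, nor could Clec7a and Clec4e. In the deficient-labelled libraries only 2 of the 9 neighbouring pairs did not overlap, Clec12a above Clec4a2 and Clec4e above Mgl2. Clec7a moved from place 8 of the 10 in WT to place 6 there, at 70.6 FPKM ± 17.9 (SD, n = 2), but its libraries overlapped with those of its neighbours Clec4n and Clec10a.

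**Figure D1:**
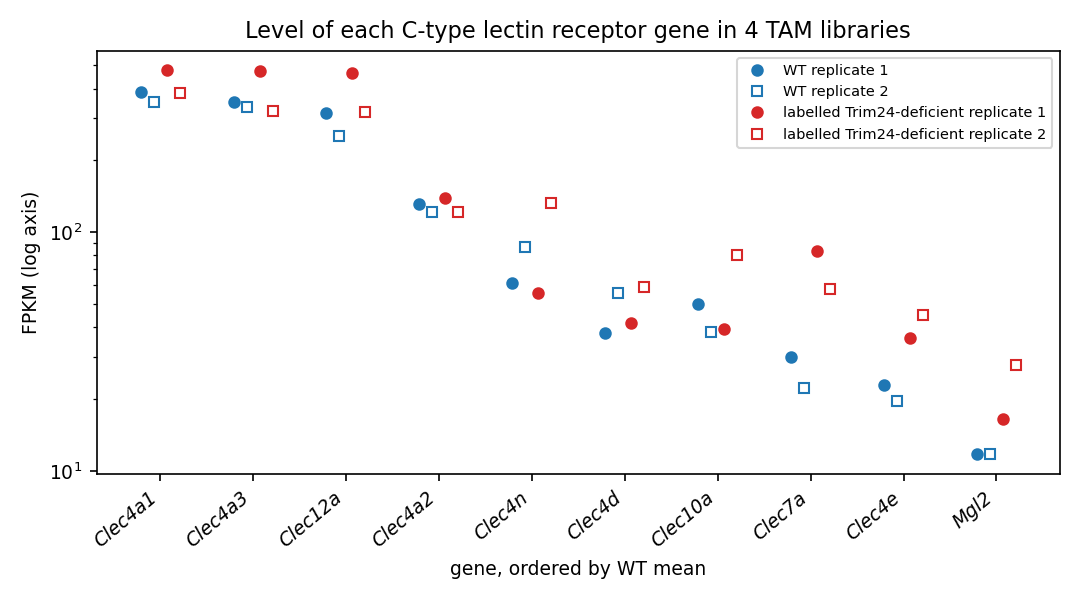
FPKM of each receptor gene (log axis) in the 4 TAM libraries, ordered by the WT mean, with 1 point per library. The points of Clec7a, Clec4e, Clec12a and Mgl2 lie higher in both deficient-labelled libraries than in both WT libraries, and those of the other 6 genes overlap on this scale.

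The DCIR genes and Clec12a together made up most of the receptor transcripts, with 84.7% and 81.9% of the summed FPKM of the 10 genes in WT and 85.1% and 74.1% in the deficient-labelled libraries. The 4 activating receptors held 10.9% and 14.2% in WT against 11.8% and 19.0%. The last share belongs to Trim24-deficient replicate 2, which had the lowest share of the first kind and the highest of the second.

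Levels of 1 gene between libraries were compared in CPM scaled by TMM (trimmed mean of M values). In these units both deficient-labelled libraries exceeded both WT libraries for 7 of the 10 genes, and the groups overlapped for Clec4d, Clec4n and Clec10a. Of all 11302 genes tested 21.4% had both deficient-labelled libraries above both WT, and 23.0% had both below. In FPKM, which carries no TMM scaling, 4 of the 10 genes were apart, against 12.3% of all genes tested. The median log2 fold change of the 10 genes, Trim24-deficient over WT, was 0.55, and that of all genes tested was -0.01. By edgeR's quasi-likelihood test over all genes, at a false discovery rate below 0.05 and a fold change above 1.5, 1 of the 10 genes was called higher, Clec7a, and none lower. Over all genes tested 0.292% were called higher and 0.0796% lower, together 0.372%. Since the genes were chosen with this contrast known, nothing is read from their counts.

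Clec7a, on the minus strand of chromosome 6, encodes Dectin-1, the beta-glucan receptor that signals through its own tail. It had 63.0 and 44.8 CPM in WT, and 189 and 133 CPM in the deficient-labelled libraries. The lower of the latter was 2.11 times the higher WT library, and the replicates of a group differed by 1.41-fold in WT and 1.42-fold in the other group. Its log2 fold change was 1.58 (standard error, SE, 0.24), a fold of 2.98. Of the 10 genes it had the largest fold change and was the only one called. The call was lost with library totals in place of TMM (log2 fold change 1.43), with upper-quartile scaling (1.52), with limma on FPKM (1.39) and without WT replicate 2 (1.35). The log2 fold change stayed between 1.31 and 1.86 whichever library was left out.

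Because Clec7a had the largest difference and is a known target of interleukin-4 and Stat6, the 250 bases before its start were read from RefSeq (GRCm38.p6). Windows were found for 8 of the 10 genes, all but Clec4n and Clec10a. The Stat6 motif searched on both strands was TTC and GAA with any 4 bases between. A gene can have several windows, and the 8 genes had 10. The motif was in 3 of these 10 windows, both of Clec7a and that of Clec4a1, and in 5.85% of all 32851 windows of this length. The Clec7a windows overlap and hold the same match, so that match is counted more than once. The PU.1 motif GAGGAAGT, searched on both strands, was in none of the windows of the 8 genes and in 2.44% of all windows. These matches are letters in a window and not shown binding sites, and no Stat6 binding was analysed here. Both windows are shown 5′ to 3′ on the gene's strand with the Stat6 motif in capitals, Clec7a at chr6:129472786-129473035 (minus strand, motif at -125 to -116 from the start) and Clec4a1 at chr6:122921598-122921847 (plus strand, motif at -244 to -235).
Clec7a: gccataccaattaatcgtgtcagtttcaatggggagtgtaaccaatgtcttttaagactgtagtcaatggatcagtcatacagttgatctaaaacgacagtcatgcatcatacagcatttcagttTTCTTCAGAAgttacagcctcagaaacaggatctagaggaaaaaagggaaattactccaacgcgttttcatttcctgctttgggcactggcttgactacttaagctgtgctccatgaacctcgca
Clec4a1: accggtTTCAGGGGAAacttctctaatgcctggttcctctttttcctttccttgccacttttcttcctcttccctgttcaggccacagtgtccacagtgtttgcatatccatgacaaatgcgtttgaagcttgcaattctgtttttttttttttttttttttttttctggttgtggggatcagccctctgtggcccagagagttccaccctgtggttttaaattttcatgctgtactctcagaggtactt
Clec4a1 had a log2 fold change of 0.37 (SE 0.21). The 2 galactose-type genes, also interleukin-4 targets, are described below, and the window of Mgl2 held no Stat6 motif. Whether the motif bears on the fold changes was not tested.

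Clec4e, Clec4d and Clec4n pair with Fcer1g and lie close together on chromosome 6. Clec4e encodes Mincle, a receptor for mycobacterial glycolipid and for a nuclear protein of dead cells. It had 56.5 and 46.5 CPM in WT against 95.6 and 121 CPM in the deficient-labelled libraries, with no overlap. Its log2 fold change of 1.07 (SE 0.21) was not called by edgeR with all libraries or by limma, and was called by DESeq2. The log2 fold change of Clec4e stayed between 0.89 and 1.24 whichever library was left out. Clec4d encodes MCL, the partner that Mincle forms dimers with. Clec4d had 48.9 and 69.2 CPM in WT and 57.7 and 83.0 CPM in the deficient-labelled libraries, and the groups overlapped, with a log2 fold change of 0.25 (SE 0.25). Clec4n, which encodes Dectin-2, a receptor for mannans of fungi, had 72.3 and 98.3 CPM in WT against 71.1 and 172 CPM. Its high value came from Trim24-deficient replicate 2, and replicate 1 lay below both WT libraries. The log2 fold change of Clec4n was 0.51 (SE 0.35) with all libraries, -0.26 without Trim24-deficient replicate 2, and 1.02 without Trim24-deficient replicate 1.

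Among the 4 activating receptors the makeup of the transcripts differed between the libraries. Clec7a held 19.7% and 12.1% of their summed FPKM in WT, and 38.5% and 19.7% in the deficient-labelled libraries. The share of Clec7a in Trim24-deficient replicate 2 was thus close to that in WT replicate 1, since Clec4n reached 133 FPKM in replicate 2 and 45.1% of the sum. In Trim24-deficient replicate 1 Clec4n held 25.6%, against 40.4% and 47.0% in WT. The summed level of the 4 genes was 152 and 185 FPKM in WT and 216 and 294 FPKM in the deficient-labelled libraries, without overlap.

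**Figure D2:**
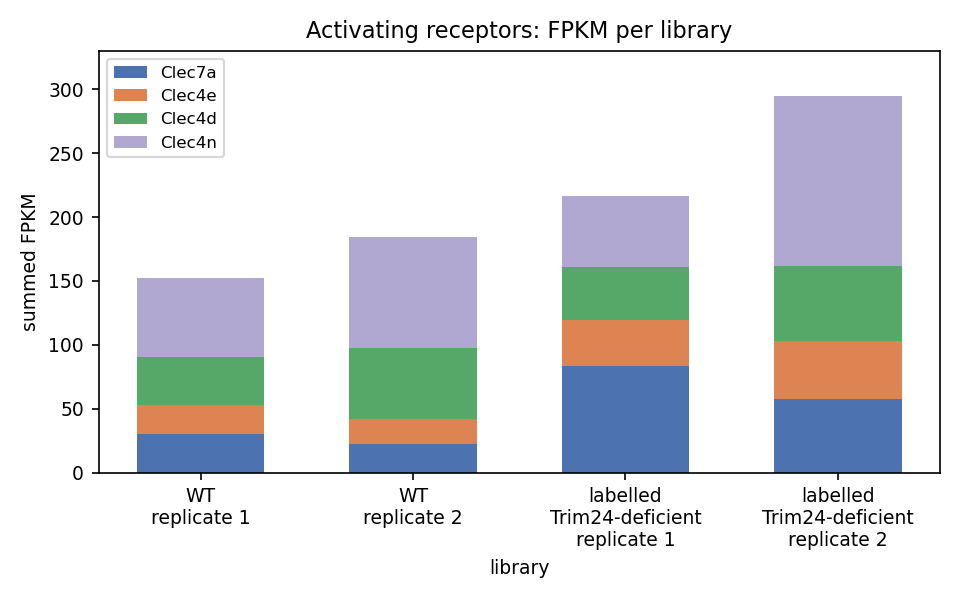
FPKM of Clec7a, Clec4e, Clec4d and Clec4n stacked for each library, with bar height giving their sum. The sum lies at 152 and 185 FPKM in WT and at 216 and 294 FPKM in the deficient-labelled libraries, where Clec7a takes the largest part of replicate 1 and Clec4n that of replicate 2.

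The DCIR genes Clec4a1, Clec4a2 and Clec4a3 encode lectins related to the dendritic cell immunoreceptor, of which Clec4a2 carries an inhibitory tail motif. Clec4a1 had 596 and 523 CPM in WT and 796 and 649 CPM in the deficient-labelled libraries. For Clec4a2 the values were 319 and 280 CPM against 362 and 321 CPM, with a log2 fold change of 0.19 (SE 0.20). Clec4a3 had 416 and 380 CPM in WT against 608 and 418 CPM, with a log2 fold change of 0.37 (SE 0.23). In each of the 3 genes the lower of the deficient-labelled libraries was within 1.09 times the higher WT library, and for Clec4a2 and Clec4a3 within 1.01 times. The groups of all 3 genes overlapped in FPKM. Their proportions varied little, Clec4a1 holding 44.5%, 43.5%, 43.9% and 46.3% of their summed FPKM in WT replicates 1 and 2 and Trim24-deficient replicates 1 and 2.

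Clec12a encodes MICL, an inhibitory receptor for uric acid crystals. It had 685 and 529 CPM in WT and 1086 and 759 CPM in the deficient-labelled libraries. The log2 fold change was 0.60 (SE 0.25), between 0.33 and 0.84 whichever library was left out. It was not called with all libraries. Clec12a and Clec7a lie within 123 kb of each other on chromosome 6. Both were higher in replicate 1 of each group, as were Clec4a1, Clec4a2 and Clec4a3, which lie elsewhere on that chromosome.

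Clec10a and Mgl2 encode the galactose-type lectins CD301a and CD301b. Clec10a had 72.9 and 53.3 CPM in WT and 61.3 and 127 CPM in the deficient-labelled libraries, so the groups overlapped. Its log2 fold change was 0.58 (SE 0.32), with -0.04 without Trim24-deficient replicate 2, and 1.01 without Trim24-deficient replicate 1. Mgl2 had 17.6 and 17.1 CPM in WT against 26.8 and 45.6 CPM, with no overlap. Its log2 fold change of 1.06 (SE 0.28) was not called with all libraries. The log2 fold change of Mgl2 lay between 0.63 and 1.40 whichever library was left out. Mgl2 held 19.0% and 23.6% of the summed FPKM of the pair in WT and 29.7% and 25.7% in the deficient-labelled libraries. Of the 3 interleukin-4-induced receptor genes, Clec7a was highest in Trim24-deficient replicate 1, and Clec10a and Mgl2 in replicate 2.

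**Figure D3:**
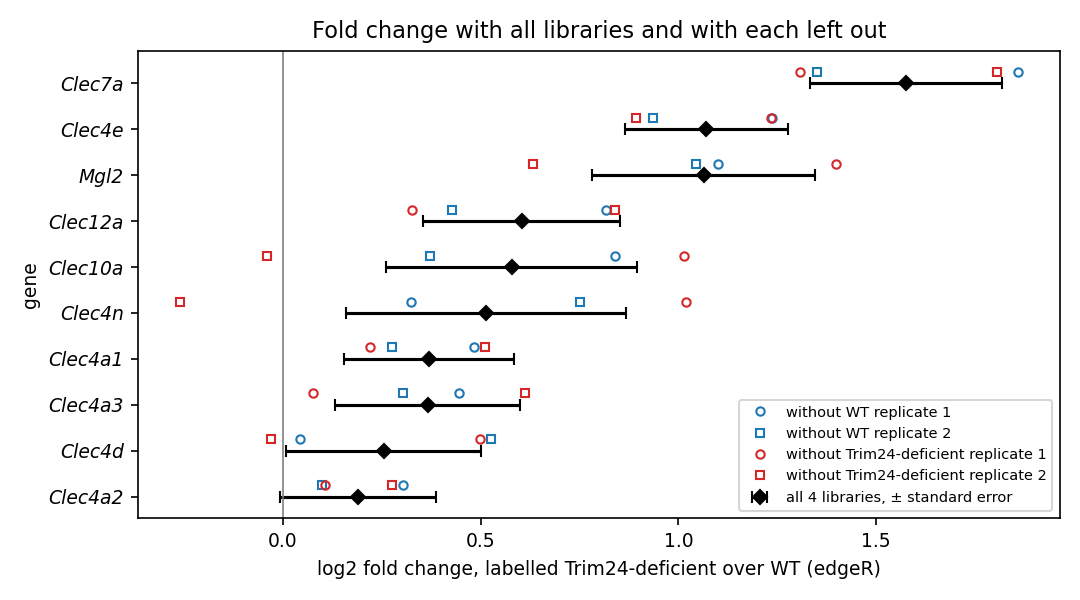
Log2 fold change of each gene, deficient-labelled libraries over WT, from edgeR with its SE (black), and with each library left out (open points). Clec7a lies highest at 1.58, and Clec4n, Clec10a and Clec4d fall to -0.26, -0.04 and -0.03 without Trim24-deficient replicate 2.

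The replicates divided the 10 genes. In the deficient-labelled libraries, Clec7a, Clec12a and the 3 DCIR genes were higher in replicate 1, by 1.13- to 1.46-fold. Clec4e, Clec4d, Clec4n, Clec10a and Mgl2 were higher in replicate 2, by 1.26- to 2.42-fold. In WT 8 genes were higher in replicate 1, by 1.03- to 1.41-fold, and Clec4d and Clec4n were higher in replicate 2, by 1.36- to 1.42-fold. All 10 genes were higher in Trim24-deficient replicate 2 than in either WT library, and 7 were higher in Trim24-deficient replicate 1 than in both.

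The 10 genes lie at 3 places in the genome (GRCm38.p6). The 6 Clec4 genes span 368 kb of chromosome 6, from 122921848 to 123289871. Clec12a and Clec7a are on the same chromosome at 129349783 to 129472785. Mgl2 and Clec10a are 40.7 kb apart at their outer ends on chromosome 11, at 70130125 to 70170836. Each of the 8 genes on chromosome 6 has 6 exons in its longest basic transcript, Clec10a has 10 and Mgl2 has 9. Neighbours could differ in fold change, as Clec4e and Clec4d, with 62.4% identical coding bases, had log2 fold changes of 1.07 and 0.25.

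Sequence shared between members bears on how their reads were counted. The coding sequences of Clec10a and Mgl2 were identical at 89.2% of aligned bases, and those of the DCIR genes at 72.6% to 76.7%. Of all stretches of 50 bases in their transcripts, 10.6% for Clec10a, 16.5% for Mgl2 and 15.0% for Clec4a2 also occurred in another gene, Clec4a4 and Clec4b1 in the case of Clec4a2. In these 3 genes the expected count was a fraction in each of the 4 libraries, while the other 7 had whole counts in all. The values of Clec10a and Mgl2 are thus partly divided by estimation, and their summed reads had a log2 fold change of 0.70.

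Other C-type lectins of myeloid cells were read from the same fit. Of all 11302 genes tested by edgeR, 0.372% were called and 1379 had an unadjusted p under 0.05. Of 25 further C-type lectin genes 11 were tested and 0 were called by edgeR, with 0 at an unadjusted p under 0.05 and 0 called by DESeq2 or limma. With so small a share called over all genes, 0 of 11 does not set these lectins apart. The median log2 fold change of the 11 was 0.17. The highest was Mrc1, the mannose receptor, at 239 and 289 FPKM in WT and 117 and 236 FPKM in the deficient-labelled libraries (log2 fold change -0.43, adjusted p = 0.621, edgeR). Clec4b1, next to the DCIR genes, had 99.9 and 65.2 FPKM in WT against 108 and 61.9 FPKM (log2 fold change 0.17, adjusted p = 0.852, edgeR). Cd302 had 70.4 and 72.8 FPKM in WT against 80.3 and 70.5 FPKM (log2 fold change 0.22, adjusted p = 0.649, edgeR). Without Trim24-deficient replicate 2 there were 2 calls, Clec9a and Mrc1.

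The signalling genes behind the receptors were not called. Of 14 genes of the Syk and Card9 route 13 were tested and 0 were called by edgeR, DESeq2 or limma, with 1 at an unadjusted p under 0.05 in edgeR. Their median log2 fold change was 0.27, and 12 of the 13 values were above 0. Fcer1g, the partner chain, was abundant with 2298 and 2114 CPM in WT and 2879 and 3037 CPM in the deficient-labelled libraries (log2 fold change 0.42, adjusted p = 0.465, edgeR). The log2 fold change was 0.20 for the kinase Syk (adjusted p = 0.723, edgeR) and 0.04 for the adaptor Card9 (adjusted p = 0.974, edgeR). On the inhibitory side 0 of 4 phosphatase genes were called by edgeR, DESeq2 or limma, with 1 at an unadjusted p under 0.05. Their median log2 fold change was -0.21, and 3 of the 4 values were below 0. Ptpn11 (-0.47) and Inppl1 (-0.36) were lower in both deficient-labelled libraries. Of all 11302 genes tested, 5580 had values above 0 and 5722 below 0. Both deficient-labelled libraries lay below both WT for 23.0% and above both for 21.4% of genes tested, and 0.372% were called. With so few genes, no split between the activating and inhibitory lists is read from these counts. Ptpn6, which inhibitory tail motifs recruit, had 707 and 550 CPM in WT against 1055 and 813 CPM (log2 fold change 0.57, adjusted p = 0.373, edgeR).

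Of 15 genes that Dectin-1 or Mincle induce in myeloid cells, 9 were tested and 2 were called, both higher in the deficient-labelled libraries. Over all genes tested 0.372% were called. The list was chosen with earlier results of these data known, so nothing is read from this count. Il1b, the inflammatory cytokine, had 28.7 and 33.8 CPM in WT and 106 and 189 CPM in the deficient-labelled libraries (log2 fold change 2.24, SE 0.28, adjusted p = 0.0123, edgeR). Ptgs2, the inducible cyclooxygenase, had 17.6 and 11.7 CPM against 61.8 and 105 CPM (log2 fold change 2.51, SE 0.31, adjusted p = 0.0112, edgeR). The other 7 were not called, and the median log2 fold change of the 9 was 0.50. Of these 7, Ccl3, Ccl22 and Egr2 were higher in both deficient-labelled libraries, and Tnf, Il10, Cxcl1 and Cxcl2 overlapped. Of the 9, 5 were thus higher in both, against 21.4% of all genes tested. By edgeR 3 of the 9 had an unadjusted p under 0.05, against 1379 of all 11302 genes tested. Nothing is read from these counts either. The calls of Il1b and Ptgs2 were both lost in limma on log2(FPKM + 1). Many stimuli other than these receptors induce both genes.

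Sums of monocyte and of neutrophil markers were higher in both deficient-labelled libraries than in both WT libraries, though not every marker was. The 5 monocyte markers summed to 1016 and 1098 CPM in WT and 1861 and 2143 CPM in the deficient-labelled libraries, 3 of 5 being higher in both (Ly6c2, Ccr2 and Plac8). By edgeR 0 of the 5 were called, with 3 at an unadjusted p under 0.05. Of all 11302 genes tested, 1379 were under 0.05 in this way, and 21.4% had both deficient-labelled libraries above both WT. F13a1 reached the highest level of the monocyte list in Trim24-deficient replicate 2 at 1163 CPM. In replicate 1 it had 320 CPM, below both WT libraries at 514 and 475 CPM. Vcan overlapped as well, with 12.1 and 16.5 CPM in WT and 13.2 and 18.1 CPM in the deficient-labelled libraries. The 9 neutrophil markers summed to 185 and 223 CPM against 288 and 449 CPM. Of the 5 tested, 4 were higher in both deficient-labelled libraries (S100a8, S100a9, Csf3r and Mmp8), with 0 called by edgeR and 4 at an unadjusted p under 0.05. The remaining one, Cxcr2, overlapped, with 63.6 and 84.0 CPM in WT against 42.8 and 76.8 CPM (log2 fold change -0.30). Ly6g, the defining neutrophil marker, had no read in WT and had 1.92 and 0.822 CPM in the deficient-labelled libraries. Monocytes and neutrophils also express Clec7a, Clec4e, Clec4d and Clec12a, and the part of these cells in the receptor values was not tested.

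Sums of dendritic cell, T and NK cell, B cell and melanoma markers overlapped between the labels. They were 59.4 to 72.9 CPM in WT and 65.1 to 106 CPM in the deficient-labelled libraries for 9 dendritic cell markers, of which Xcr1 and Batf3 were the highest, Batf3 was higher and Flt3 and Cd209a lower in both deficient-labelled libraries, and 0 of 6 tested were called by edgeR, with 1 at an unadjusted p under 0.05. The sums were 67.3 to 117 against 50.1 to 228 CPM for 8 T and NK cell markers, led by Gzmb, and 46.3 to 55.3 against 51.6 to 55.4 CPM for 4 B cell markers, nearly all Cd79b. For 5 melanoma markers, led by Tyr, they were 736 to 780 against 581 to 788 CPM, so melanoma gene transcripts were present in every library. Of these Mlana, Dct and Tyrp1 were lower in both deficient-labelled libraries, and 0 of the 5 were called by edgeR, with 1 at an unadjusted p under 0.05. Of all 11302 genes tested, 23.0% had both deficient-labelled libraries below both WT, and 21.4% had both above. By edgeR 0.372% of them were called, and 1379 were at an unadjusted p under 0.05. The 9 macrophage and sort markers, led by Lyz2, summed to 11254 and 9414 CPM in WT and 14237 and 12477 CPM in the deficient-labelled libraries, without overlap. Of the 9, 6 were higher in both deficient-labelled libraries (Ptprc, Itgam, Adgre1, Csf1r, Lyz2 and Fcgr1), against 21.4% of all genes tested. Of these 9, 0 were called by edgeR, with 2 at an unadjusted p under 0.05. The 10 receptor genes summed to 2347 and 2041 CPM in WT against 3353 and 2829 CPM, also without overlap, and the part of the macrophage markers in the receptor values was not tested.

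**Figure D4:**
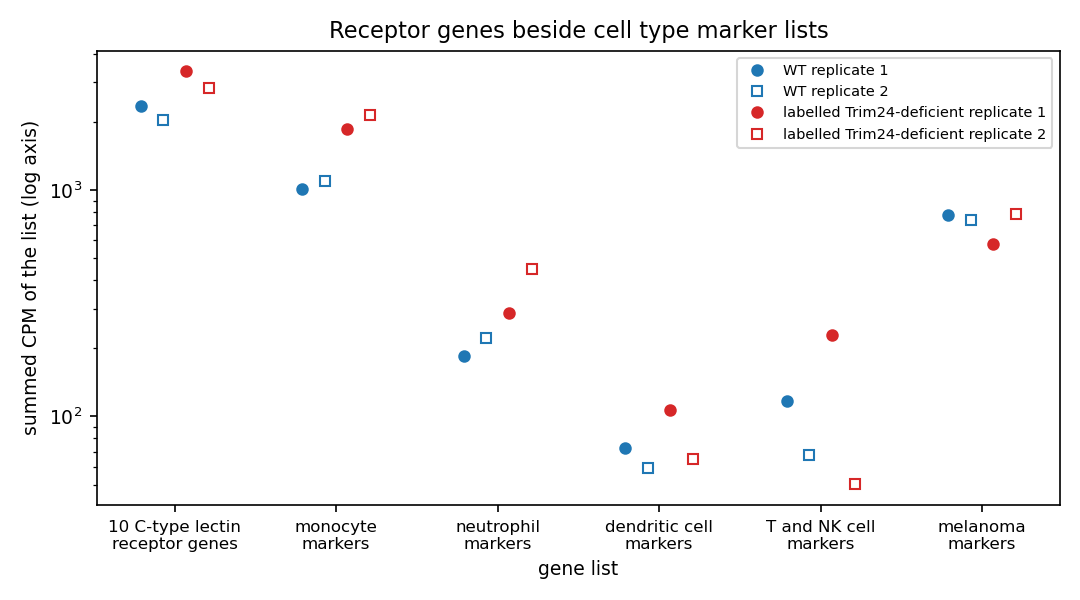
Summed CPM (log axis) of the 10 receptor genes and of 5 marker lists, with 1 point per library. The receptor, monocyte and neutrophil sums lie higher in both deficient-labelled libraries than in both WT libraries, and the other 3 sums overlap.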

How the data were processed

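The authors aligned reads to GRCm38/mm10 with Bowtie and quantified them with RSEM, and deposited for each gene an expected count, which is not normalized, an FPKM value and a transcript length. About 77% of values above 0 were whole. Genes were matched by Entrez identifier (16698 of 16739 with a symbol). Members and gene lists were chosen with earlier results of these data known. Expected counts were rounded and tested with edgeR 4.0.16 (R 4.3.3; filterByExpr, TMM, glmQLFTest, Benjamini-Hochberg over 11302 genes), all 4 libraries and no block. Genes were called at a false discovery rate below 0.05 and a fold change above 1.5, after the study's methods. The fit was tested on simulated data. With 2 against 2 libraries an exact permutation test cannot go below 0.333, so adjusted p-values rest on the spread edgeR shares between genes. Named were all members, called genes of the other lists, Fcer1g, Syk, Card9 and Ptpn6, the 3 other lectins highest in FPKM, and of the marker lists the highest genes and those that separated the groups. Some genes outside this rule were named as well, among them Ptpn11, Inppl1 and the uncalled receptor-induced genes. A listed gene is not reported here. Median values stand in for set tests. Alternatives were DESeq2 1.42.0, limma 3.58.1 on log2(FPKM + 1) with at least 1 FPKM in 2 libraries, a replicate block, other scalings and filters (none, or 10 counts in every library), removal of the length trend, summing similar genes and leaving out each library. Coding identity came from pairwise alignment of GENCODE transcripts.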

Additional observations from a re-analysis of the deposited data

How the results depend on the processing

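Of 127 fold changes of the 10 receptor genes under alternatives, 124 kept the direction of the reported value. The 3 below 0 were all without Trim24-deficient replicate 2, Clec4n at -0.26, Clec10a at -0.04 and Clec4d at -0.03. Of the 87 that left out no library, 0 were below 0. Both the 127 and the 87 count each value for summed similar genes once per gene in the sum. Of the 10 genes 1 was called as reported, 0 with library totals in place of TMM, 0 with upper-quartile scaling, 0 with limma, 2 with DESeq2 (Clec4e, Clec7a) and 3 with a replicate block (Clec4e, Clec7a, Mgl2). Leaving out 1 library gave 0 to 5 calls, with 0 without WT replicate 2, 5 without Trim24-deficient replicate 1 (Clec7a, Clec4e, Clec4n, Clec10a, Mgl2) and 3 without Trim24-deficient replicate 2 (Clec7a, Clec4e, Clec12a). Each such fit leaves 1 library in a group, which is assumed to vary like the other group, and the spread was larger between the deficient-labelled libraries (chi-square per degree of freedom 20.5) than between WT libraries (9.11), so these counts say little about stability. Over all genes 42 were called, against 634 with a replicate block, 163 with DESeq2 and 23 with limma (14 higher, 9 lower), and 25 to 652 with 1 library left out (66 without WT replicate 1, 25 without WT replicate 2, 405 and 652 without Trim24-deficient replicates 1 and 2). Samples of the same replicate number share only the number, with deviations correlated at 0.165, so the block was not used. Calls of other lectins ran from 0 to 2 and of receptor-induced genes from 2 to 4 with 1 library left out (2 and 4 without Trim24-deficient replicate 2), and limma gave 0 of the latter. Of the 10 ranks of WT level 5 were kept in CPM, which is not scaled to length, and 8 to 10 with 1 WT library left out (8 without WT replicate 2). The median of all genes shifted by -0.15 with library totals and by -0.13 with limma on FPKM. Other than by construction of the alternative (fewer samples, no length scaling), the cause was not tested. Depth limits Mgl2 most, with 81.9 expected counts in WT replicate 2.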
